A study of Cucumis sativus with 9 samples.

Results

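Leaves of cucumber (Cucumis sativus) seedlings that had spent 3 h at 42 °C were compared with leaves taken at 0 h, before any heat, across all genes of the deposited tables. The comparison used 6 of the 9 RNA-seq libraries of the series: 3 of heated leaves (HT3h_1, HT3h_2 and HT3h_3) and 3 of untreated leaves (HT0h_1, HT0h_2 and HT0h_3). All plants were seedlings of the inbred line 9930 of the 'Chinese long' type, 3 weeks old, raised in a growth chamber at 25 °C by day and 18 °C by night with 16 h of light and 8 h of darkness. The other 3 libraries, from leaves heated for 6 h, entered only where they are named. Leaves kept without heat for 3 h are not among the libraries, so the effects of heat and of the hour of sampling cannot be told apart in any value below. The study gives the libraries of each time as biological replicates and does not say how many seedlings went into one.

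Heat unfolds proteins, and plant cells answer with heat shock factors, transcription factors that bind the promoters of chaperone genes. The chaperones differ in role. Small heat shock proteins of the Hsp20 family hold unfolded proteins without ATP, Hsp70 proteins with their DnaJ partners refold them, Hsp90 acts on signalling proteins, and ClpB-type proteins dissolve aggregates. A young leaf under heat is also known to slow growth and cell division, and the photosynthetic apparatus is among its heat-sensitive parts.

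FPKM, the unit of the tables, counts the fragments that fall on a gene and divides them by its length and by the depth of the library. The fragments on genes numbered from 18972139 to 22942239 in the 6 libraries. Of 24880 genes in the tables, 19358 had a mean of 0.1 FPKM or more over the 6 libraries and were tested with limma on log2(FPKM + 0.1). Genes are said below to be called, or to have risen or fallen, where the Benjamini-Hochberg adjusted p across the tested genes did not exceed 0.05 and the log2 fold change was at least 1 in size. Fold changes are HT3h over HT0h on that scale with their standard error (SE, n = 3 and 3), and they understate the change of genes with low values. The SE of single genes was estimated with a mean-variance trend and is wide for the few most abundant genes.

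The libraries carried the leaf label in their most abundant genes. The gene of the RuBisCO small subunit, CsaV3_5G034360, was the highest gene in the mean of both groups, and the next 4 in HT0h were chlorophyll a/b binding genes. Gene families with members known from seed, pollen, phloem or xylem were present in both groups. The 7 oleosin genes, oil body proteins of seeds, summed to between 9.06 and 12.6 FPKM in HT0h and between 10.6 and 20.3 FPKM in HT3h. The 34 phloem protein 2 genes summed to between 193 and 253 FPKM in HT0h and between 269 and 428 FPKM in HT3h. The 34 multicopper oxidase genes, which include laccases of the xylem, summed to between 421 and 472 FPKM and between 457 and 565 FPKM. The 37 cupin genes, a domain of seed storage proteins, summed to 993, 1417 and 1069 FPKM in HT0h and 2650, 1688 and 981 FPKM in HT3h. The 26 genes with the domain of the pollen protein Ole e I summed to 1648, 1139 and 1246 FPKM in HT0h and 645, 537 and 859 FPKM in HT3h, so every heated library was below every unheated one. In the tested genes of these 5 lists 1 cupin gene, 4 phloem protein 2 genes, 3 multicopper oxidase genes and 1 Ole e I gene rose, and 1, 1, 6 and 3 fell. The part of these tissues in the results was not tested.

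HT3h_2 and HT3h_3 lay farther from each other than any other pair among the 6 libraries of the same group. Their log2 values correlated at r = 0.913 over the 19358 genes, against 0.946 and 0.947 for the other HT3h pairs and 0.968 to 0.972 for the HT0h pairs. The study left HT3h_2 out of its own analysis for poor uniformity. It was kept here, and most counts are also given without it.

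After 3 h, 4051 of the 19358 genes tested were called, which is 20.9% of them. Of these, 2146 rose (11.1% of the genes tested) and 1905 fell (9.84%). The counts of every gene list below are to be read beside these shares. Without HT3h_2, 3516 genes were called (18.2% of 19324 tested), 1889 higher and 1627 lower, and 3185 of them were among the 4051. The 3 heated libraries lay wholly above or below the 3 unheated ones in 9987 genes, 51.6% of those tested, so that groups without overlap are common in these data and say little of a single gene. Most genes named below were chosen for a call with a large change, or after their values were seen. Where their groups lie apart, this follows in part from that choice. The number of falls was 1209 without HT0h_1 and 1181 without HT0h_3. The median log2 fold change of all genes tested was -0.01. In the gene lists below, counts of 3 genes or fewer in a direction often moved by 1 or 2 genes with a library left out and are a description only.

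Among Pfam families with 10 or more genes tested, Hsp20 had the highest median change. Of its 32 genes 27 were tested and 19 rose, with a median log2 fold change of 2.41, and the other 8 tested did not pass the test. With 1 library left out in turn, 18 to 20 rose. The summed level of the 32 genes was 345, 333 and 384 FPKM in HT0h_1 to HT0h_3 and 1651, 1478 and 1789 FPKM in HT3h_1 to HT3h_3. The list's median change was 2.25, 2.38 and 2.24 in the 3 heated libraries, so HT3h_2 and HT3h_3 differed little in this family.

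The 4 Hsp20 genes with the largest rise were at or below 5.82 FPKM without heat and at or above 34.4 FPKM with it. CsaV3_3G002780 (chromosome 3, 2255195 to 2257043) had 0.263, 0 and 0 FPKM in the unheated libraries and 76.9, 134 and 101 FPKM in the heated ones (log2 fold change 9.37 ± 0.53, adjusted p = 0.000219). Its unheated level rests on 5 fragments in 3 libraries, so its fold change depends on the pseudocount. CsaV3_5G008780 (chromosome 5, 5443251 to 5444088) went from 0.32, 0.128 and 0 FPKM to 34.4, 52.8 and 35.2 FPKM (log2 fold change 7.56 ± 0.52, adjusted p = 0.00042). CsaV3_3G002770, the neighbour of the first gene (chromosome 3, 2251829 to 2254144), had a measurable level without heat, at 5.61, 3.31 and 5.82 FPKM, and reached 274, 202 and 558 FPKM (log2 fold change 6.01 ± 0.40, adjusted p = 0.000354). CsaV3_7G008210 (chromosome 7, 5140602 to 5141331) rose from 1.81, 0.991 and 1.85 to 54.1, 65.7 and 86.7 FPKM (log2 fold change 5.41 ± 0.29, adjusted p = 0.000195). In all 4 genes every heated library was far above every unheated one, and HT3h_3 was the highest heated library in the last pair of genes while HT3h_2 was the highest in the first pair.

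The family did not move as a block. CsaV3_1G035810, CsaV3_1G035820 and CsaV3_1G035830 lie next to each other on chromosome 1 between 21892088 and 21898862 and all rose (log2 fold changes 1.49, 2.48 and 2.41). They were already at 43.4, 41.2 and 47.7 FPKM, 19.5, 14.8 and 28.8 FPKM and 37.8, 30.2 and 46.6 FPKM without heat. In contrast, CsaV3_1G005060 stood at 28.8, 37.2 and 36.9 FPKM in HT0h and 27.7, 21.5 and 20.3 FPKM in HT3h, and CsaV3_3G005420 at 15, 9.95 and 7.99 and 10.7, 12.6 and 6.86 FPKM, and neither was called. These 5 genes were chosen after their values were seen. Where neighbouring Hsp20 genes are near-identical, the counting may have split or dropped shared fragments, and how it treated such fragments is not stated.

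**Figure D1:**
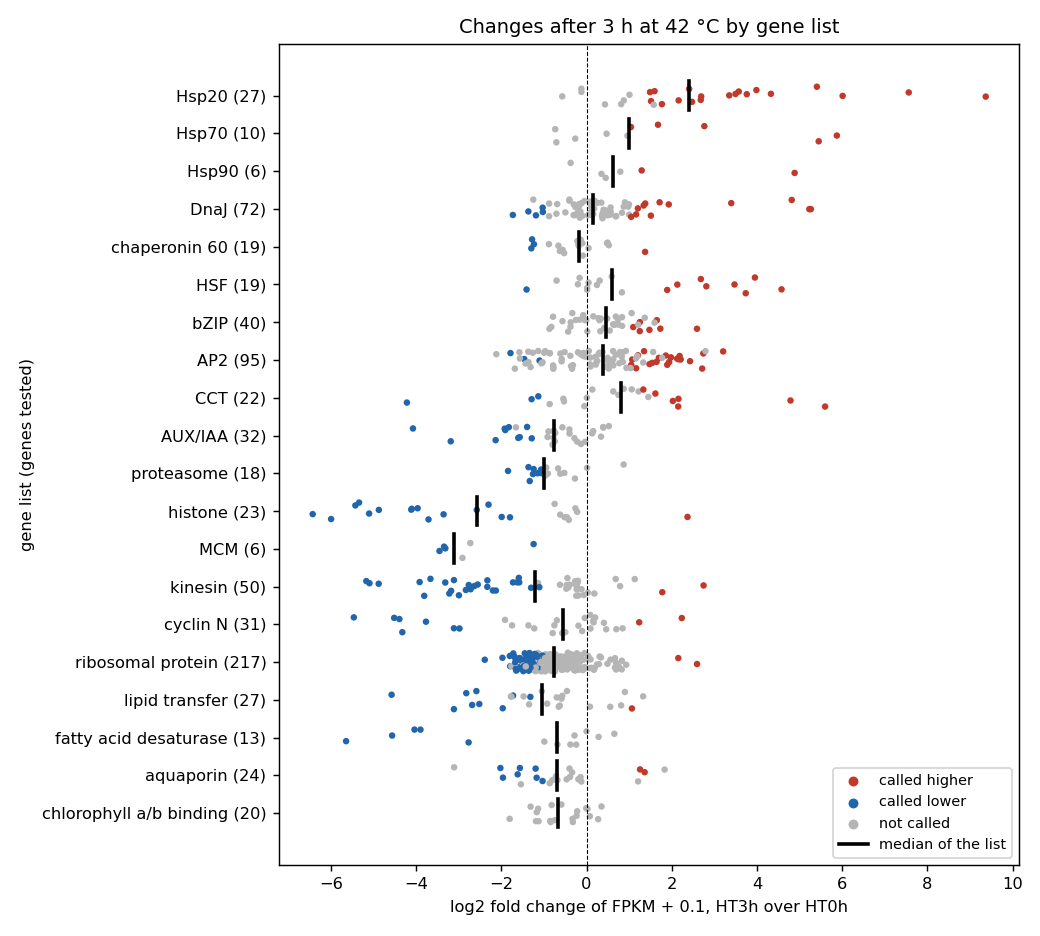
Log2 fold change of FPKM + 0.1, HT3h over HT0h, of each gene tested in 20 gene lists, with the number of genes tested in brackets. Red points were called higher, blue points called lower and grey points not called, and the black bar is the median of the list. Hsp20 stands to the right with a median of 2.41, and the histone and MCM lists stand to the left with medians of -2.57 and -3.11.

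Among the ATP-driven chaperones the largest rises were again in genes of low level without heat. Genes were named for their fold change and a mean of 1 FPKM or more over the 6 libraries. A gene near 0 FPKM without heat could thus be named only through its heated level. The low base of these genes follows in part from that choice. Of 10 Hsp70 genes 5 rose (4 to 6 with 1 library left out) and the others did not pass the test (median log2 fold change 1.00). CsaV3_2G009170 (chromosome 2, 5673429 to 5675700) went from 0.213, 0.292 and 0.219 to 22.1, 19 and 18.6 FPKM (log2 fold change 5.88 ± 0.24, adjusted p = 6.68e-05), and CsaV3_7G024760 from 0.373, 0.26 and 0.651 to 18.6, 26 and 21.8 FPKM (log2 fold change 5.45 ± 0.32, adjusted p = 0.000259). The heated libraries lay close together in both genes, and no heated value overlapped an unheated one. CsaV3_5G026520 rose from a higher base, 10.7, 8.32 and 19.8 FPKM, to 82.3, 80.6 and 85.7 FPKM (log2 fold change 2.77 ± 0.30, adjusted p = 0.00136). The most abundant Hsp70 gene, CsaV3_2G011210, stood at 462, 375 and 569 FPKM without heat and 356, 182 and 329.9 FPKM with it, and, chosen for its level, did not pass the test (log2 fold change -0.73, adjusted p = 0.124, limma).

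The Hsp90 genes that rose also differed in base level. Of 6 genes tested 2 rose, also with any library left out. CsaV3_3G017480 (chromosome 3, 13094503 to 13098153) had 0.13, 0.0371 and 0.478 FPKM in HT0h and 5.88, 6.28 and 12.2 FPKM in HT3h (log2 fold change 4.88 ± 0.58, adjusted p = 0.00184). CsaV3_2G029630 rose from 82, 84.5 and 92.2 to 294, 201.4 and 159.7 FPKM (log2 fold change 1.29 ± 0.24, adjusted p = 0.00759), with HT3h_1 the highest and HT3h_3 the lowest of the heated libraries. The gene with the highest Hsp90 level, CsaV3_5G018740, also chosen for its level, was at 311, 227 and 358 FPKM and 551, 434 and 547 FPKM and missed the threshold (adjusted p = 0.0537, limma).

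DnaJ proteins, which bring clients to Hsp70, make the largest chaperone list. Of 72 genes tested 12 rose (16.7%) and 5 fell (6.94%), beside 11.1% and 9.84% of all genes. Without HT3h_2 the counts were the same. The number of falls was 1 without HT0h_1, HT0h_2 or HT0h_3 and 0 without HT3h_1 by limma, while on all 6 libraries 11 were lower at an unadjusted p under 0.05 and voom called 5 lower. CsaV3_5G028590 (chromosome 5, 23698919 to 23700429) rose from 9.05, 7.56 and 9.71 FPKM to 413, 357 and 265 FPKM (log2 fold change 5.27 ± 0.20, adjusted p = 6.68e-05). CsaV3_2G006870 (chromosome 2, 3412395 to 3415915) was close to it, at 10.2, 8.04 and 9.28 and 414, 343 and 291 FPKM (log2 fold change 5.23 ± 0.18, adjusted p = 6.68e-05). CsaV3_7G034140 rose from 16, 13.9 and 15.1 to 169, 129 and 182 FPKM (log2 fold change 3.40 ± 0.17, adjusted p = 0.000153). Replicates lay close together in both groups of the 3 genes, with no overlap. CsaV3_5G027230, whose description adds a ferredoxin-type iron-sulphur domain to the DnaJ domain, rose from 0.195, 0.518 and 0.467 to 17.8, 23.7 and 5.32 FPKM (log2 fold change 4.82 ± 0.60, adjusted p = 0.00208), with HT3h_3 lowest of the heated libraries.

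Helpers of the chaperones rose singly. The only gene tested with an AHSA1 domain, an activator of Hsp90, was CsaV3_3G038670, which rose from 70.4, 67.3 and 70.3 to 169, 181 and 183 FPKM (log2 fold change 1.36 ± 0.13, adjusted p = 0.000965). Of 18 FKBP-type prolyl isomerases 3 rose (16.7%, beside 11.1% of all genes), as without HT3h_2. CsaV3_3G015840, which also carries TPR repeats, led them, from 29.2, 24 and 34.1 to 119, 118 and 127 FPKM (log2 fold change 2.07 ± 0.16, adjusted p = 0.000592). Replicates were tight in both genes. BAG proteins bind Hsp70, and 1 of 7 rose: CsaV3_6G000970 went from 16.3, 11.2 and 19.5 to 83.2, 278 and 84.9 FPKM (log2 fold change 3.02 ± 0.48, adjusted p = 0.00462), with HT3h_2 more than 3 times as high as either other heated library. CsaV3_1G005900, with a Clp amino-terminal domain and a ClpB-type ATPase domain, rose from 16.2, 16.5 and 15.4 to 30.6, 41.5 and 33.4 FPKM (log2 fold change 1.12 ± 0.15, adjusted p = 0.00269) but was not called without HT3h_2 (log2 fold change 0.99).

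The chaperonins, barrel-shaped folding machines of plastids, mitochondria and the cytosol, did not follow the heat shock families. Of 19 genes of the chaperonin 60 family 1 rose and 3 fell, and none of the 3 falls was called without HT3h_2, at log2 fold changes of -0.96 for CsaV3_2G025080, -0.99 for CsaV3_5G039190 and -0.97 for CsaV3_1G006990. Each of the 3 was called in 1 of the 6 fits with 1 library left out. The one that rose, CsaV3_1G044910, whose description adds a FYVE zinc finger and a phosphatidylinositol phosphate kinase domain, was at 3.02, 3.3 and 3.46 and 8.7, 10.4 and 7.02 FPKM (log2 fold change 1.37 ± 0.21, adjusted p = 0.0042). The 2 most abundant of 3 chaperonin 10 genes, CsaV3_1G041320 and CsaV3_6G006710, had overlapping groups: 1119, 860.5 and 1301 against 1500, 926 and 1379 FPKM and 501, 415 and 559 against 644, 293 and 559 FPKM.

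**Figure D2:**
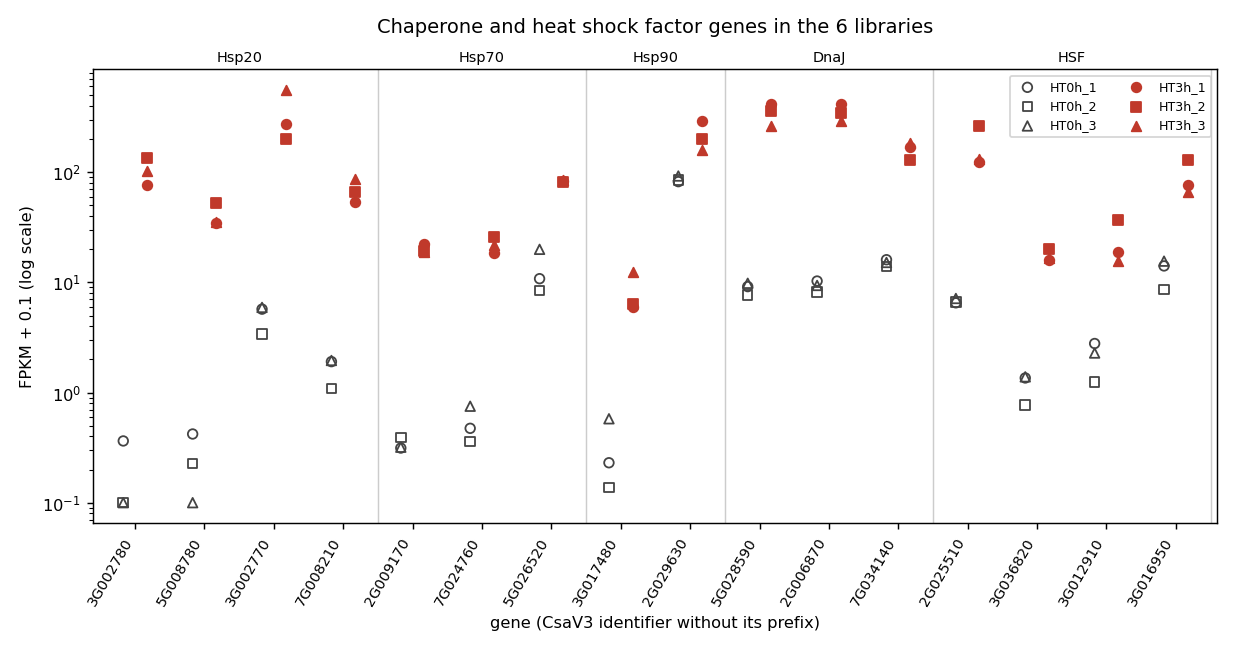
FPKM + 0.1 on a log axis of 16 chaperone and heat shock factor genes in each of the 6 libraries. Open grey symbols are HT0h and filled red symbols HT3h, and circle, square and triangle are replicates 1, 2 and 3. In every gene shown the 3 heated libraries lie above the 3 unheated ones, by the widest margin in CsaV3_3G002780, from 0.263 FPKM or less to 76.9 FPKM or more. The genes were chosen among those called higher, so this separation follows from the choice. Groups did not overlap in 51.6% of all genes tested.

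Heat shock factors themselves were among the regulators that rose. Of 22 genes 19 were tested, 8 rose and 1 fell, and 8 rose with any library left out in turn. CsaV3_2G025510 (chromosome 2, 17542329 to 17543717) had 6.42, 6.55 and 7.04 FPKM without heat and 123, 261 and 131 FPKM after 3 h (log2 fold change 4.58 ± 0.29, adjusted p = 0.000309). CsaV3_3G036820 rose from 1.26, 0.668 and 1.29 to 15.9, 19.9 and 16.6 FPKM (log2 fold change 3.95 ± 0.29, adjusted p = 0.000475), and CsaV3_3G012910 from 2.69, 1.14 and 2.18 to 18.9, 36.4 and 15.5 FPKM (log2 fold change 3.47 ± 0.41, adjusted p = 0.00185). HT3h_2 was the highest library in all 3 genes, and no groups overlapped. CsaV3_3G016950 rose from 14, 8.49 and 15.5 to 76.2, 129 and 66.3 FPKM (log2 fold change 2.81 ± 0.32, adjusted p = 0.00155). The one that fell, CsaV3_2G002270, was at 3.04, 1.88 and 3.6 and 0.886, 1.37 and 0.754 FPKM (log2 fold change -1.41, adjusted p = 0.0248, limma), and it was not called without HT0h_1, HT0h_3 or HT3h_1. CsaV3_3G001500, at 16.9, 18.4 and 17.7 and 15.8, 15.6 and 14.7 FPKM, was not called. The last pair of genes was chosen after the values were seen.

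Genes of the circadian clock and of photoperiod carry the CCT motif, a DNA-contact domain named after CONSTANS, CONSTANS-like and TOC1 of Arabidopsis. Of 22 CCT genes tested 7 rose and 3 fell, and 8 and 2 without HT3h_2 (median log2 fold change 0.81). In 3 of the 7 the description adds a response regulator receiver domain, the layout of the pseudo-response regulators of the Arabidopsis clock. CsaV3_5G000090 (chromosome 5, 54545 to 59025) went from 2.52, 2.97 and 3.48 to 84.2, 102 and 70.2 FPKM (log2 fold change 4.79 ± 0.19, adjusted p = 6.68e-05). CsaV3_1G005680 rose from 16.8, 14 and 18.9 to 77.7, 83.6 and 60.9 FPKM (log2 fold change 2.15 ± 0.18, adjusted p = 0.00074) and CsaV3_4G024430 from 125, 127 and 139 to 539.7, 669 and 413 FPKM (log2 fold change 2.03 ± 0.23, adjusted p = 0.00158). None of the 3 overlapped between groups. These genes are known to vary with the hour of the day, and the hour differed between the groups.

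Other members of that list moved in both directions. CsaV3_1G036580 rose from 0.104, 0.138 and 0 to 7.52, 5.99 and 11.8 FPKM (log2 fold change 5.60 ± 0.45, adjusted p = 0.000704). CsaV3_4G009980 (chromosome 4, 7751656 to 7755202), with a B-box beside its CCT motif as in CONSTANS-like proteins, fell from 107, 143 and 95.5 to 8.55, 8.59 and 2.93 FPKM (log2 fold change -4.21 ± 0.42, adjusted p = 0.00102). Among genes with B-boxes 2 of 12 rose and 3 fell, with the same counts without HT3h_2, and 5 rose without HT3h_3. CsaV3_7G000270 rose from 20.5, 23.5 and 20 to 101, 81.7 and 83.6 FPKM (log2 fold change 2.05 ± 0.14, adjusted p = 0.000437) and CsaV3_4G005810 fell from 33.6, 35.1 and 36.9 to 11.1, 12.6 and 10.3 FPKM (log2 fold change -1.63 ± 0.14, adjusted p = 0.000754). Both had heated libraries that lay close together and apart from the unheated ones.

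The large transcription factor families differed in their shares of calls, beside 11.1% of all genes called higher and 9.84% lower. AP2 genes were called higher in 21.1% and lower in 3.16%, NAM genes in 18.5% and 7.41%, and bZIP genes in 17.5% and 0%. Of 95 AP2 genes, the family of ethylene response and drought-responsive factors, 20 rose and 3 fell, and 14 rose and 1 fell without HT3h_2. CsaV3_6G002010 led them, from 1.66, 0.632 and 1.71 to 11.8, 16 and 9.47 FPKM (log2 fold change 3.21 ± 0.41, adjusted p = 0.00225). Of 40 bZIP genes 7 rose (6 without HT3h_2, 5 to 8 over all left-out libraries), led by CsaV3_2G029010 from 14.6, 25.4 and 13.4 to 98.6, 126 and 89.7 FPKM (log2 fold change 2.59 ± 0.27, adjusted p = 0.00114). In both genes HT3h_2 was highest and the groups did not overlap. Of 54 NAM genes, the NAC factors, 10 rose and 4 fell, and 6 rose and 6 fell without HT3h_2. The number of NAM rises was 6 without HT0h_1, 6 without HT0h_2 and 5 without HT0h_3. CsaV3_1G039310 rose from 2.14, 2.08 and 2.96 to 18.8, 25.8 and 13.8 FPKM (log2 fold change 2.94 ± 0.28, adjusted p = 0.000871).

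Of 137 Myb genes 13 rose and 14 fell, with 10 and 14 without HT3h_2, and 8 fell without HT0h_3. These shares, 9.49% higher and 10.2% lower, were near those of all genes (11.1% and 9.84%). CsaV3_1G034500 rose from 0.537, 0.338 and 0.145 to 12.1, 17.8 and 12.9 FPKM (log2 fold change 5.12 ± 0.40, adjusted p = 0.000592). CsaV3_6G008360 (chromosome 6, 6710104 to 6724832) fell from 176, 209 and 184 to 8.49, 13.3 and 5.72 FPKM (log2 fold change -4.43 ± 0.29, adjusted p = 0.000348), and CsaV3_3G035450 from 16.3, 18.3 and 15.4 to 0.329, 0.808 and 0.463 FPKM (log2 fold change -4.79 ± 0.32, adjusted p = 0.000355). Every heated library lay far below every unheated one in both genes that fell, and far above in the one that rose. Of 48 WRKY genes tested 7 rose and 3 fell (6 and 3 without HT3h_2), with 4 rising without HT0h_2 and 4 without HT0h_3. Of 70 bHLH genes 2 rose and 2 fell, as without HT3h_2, and 9 rose and 9 fell without HT3h_3. The shares called higher and lower were 14.6% and 6.25% for WRKY genes and 2.86% each way for bHLH genes. SBP genes, regulators of leaf and flower phases, were called only lower, 4 of 14, with 1 called without HT0h_1, 2 without HT0h_2, 0 without HT0h_3, 1 without HT3h_1, 2 without HT3h_2 and 6 without HT3h_3. By limma 0 SBP genes rose, 1 was higher at an unadjusted p under 0.05, and limma voom called 0 higher and 5 lower.

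In the B3 family, DNA-binding proteins that include auxin and seed factors, 1 of 25 rose and 4 fell, 3 fell without HT3h_2 and 2 without HT0h_1. CsaV3_2G028000 (chromosome 2, 18506838 to 18509255) fell from 16.8, 16.6 and 16.4 FPKM to 0.181, 0 and 0.383 FPKM (log2 fold change -6.13 ± 0.55, adjusted p = 0.000855), and its neighbour CsaV3_2G028010 fell from 2.36, 1.74 and 2.13 to 0.342, 0.061 and 0.544 FPKM. The second of these calls was lost without HT0h_1 (adjusted p = 0.0522, limma). CsaV3_1G028810 rose from 17.5, 19.8 and 10.6 to 108, 181 and 81.2 FPKM (log2 fold change 2.91 ± 0.35, adjusted p = 0.00181).

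AUX/IAA proteins repress the response to auxin. Of 32 genes tested 10 fell (31.25%, beside 9.84% of all genes) and 22 did not pass. The median log2 fold change was -0.77, and 8 fell without HT3h_2. The count was 5 without HT0h_1 and 6 without HT0h_2. The limma test called 0 higher, 2 were higher at an unadjusted p under 0.05, and voom called 0 higher and 9 lower. CsaV3_7G033480 fell from 35.7, 31.3 and 30.9 to 8.53, 7.12 and 10.6 FPKM (log2 fold change -1.91 ± 0.18, adjusted p = 0.000871). CsaV3_3G026280 had 66 fragments over the unheated libraries and 1 over the heated ones, a level 75.2 times as high without heat (exact 95% interval 13 to 3.01e+03, counting error only). SAUR genes, small auxin-induced proteins of growing cells, were called lower in 8 of 34 (23.5%) and higher in 3 (8.82%). The shares of all genes were 9.84% and 11.1%. Without HT3h_2 the SAUR counts were 9 and 2, and 5 were lower without HT0h_1. CsaV3_7G000680 fell from 2.91, 5.68 and 3.33 to 0.315, 0 and 0.197 FPKM (log2 fold change -4.08 ± 0.59, adjusted p = 0.00348). Genes with a TIFY domain rose in 2 of 13 (15.4%, beside 11.1% of all genes), as without HT3h_2. CsaV3_7G006810, which also holds CCT and GATA domains, went from 12.1, 15.7 and 14.9 to 45.7, 54.6 and 33.3 FPKM (log2 fold change 1.62 ± 0.21, adjusted p = 0.00242).

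Outside these families the largest rises joined known stress genes with genes of no description. CsaV3_6G048750 (chromosome 6, 28565718 to 28567166), with the domain of RbcX, an assembly chaperone of RuBisCO, rose from 1.39, 1.2 and 1.8 to 176, 186 and 106 FPKM (log2 fold change 6.61 ± 0.26, adjusted p = 6.68e-05). CsaV3_4G001170, a universal stress protein, rose from 0.619, 0.54 and 0.159 to 30.5, 150.1 and 40.9 FPKM (log2 fold change 6.87 ± 0.66, adjusted p = 0.00095), with HT3h_2 more than 3 times as high as the other heated libraries. CsaV3_1G022930 (chromosome 1, 13292418 to 13298387), with no description, went from 12.1, 12.6 and 10.5 to 1110, 1938 and 947 FPKM (log2 fold change 6.75 ± 0.28, adjusted p = 6.68e-05). It thus became one of the abundant transcripts of the heated leaf, on 232493 fragments in 3 libraries. CsaV3_1G035970, also without description, rose from 2.37, 1.65 and 1.52 to 251, 331 and 271 FPKM (log2 fold change 7.21 ± 0.20, adjusted p = 3.13e-05) and had the smallest adjusted p of the 4.

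Some genes had no fragment in any unheated library. CsaV3_UNG167280 (scaffold 87, 66908 to 76229), described by a chromo domain, had 0 fragments in HT0h and 57.6, 173 and 104 FPKM in HT3h, which is at least 1.63e+03-fold higher against a floor of 3 fragments over the group. CsaV3_1G031080 (chromosome 1, 18270244 to 18273977), with the gag domain of retrotransposons and a chromo domain, had 0 fragments and then 9.43, 20.9 and 16.8 FPKM, at least 413-fold higher. CsaV3_6G009870, without description, had 0 fragments and then 9.42, 2.46 and 24.6 FPKM, at least 77.6-fold higher. With 0 fragments in HT0h, these genes passed the filters on mean FPKM only through HT3h. They were named among the largest rises without overlap, so all 3 heated libraries were above 0 by that rule. HT3h_2 was highest in the first pair and lowest in the last gene. These floors cover counting error only.

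Calcium sensors with EF-hands also supplied large rises, in a list of which 16.7% was called, beside 20.9% of all genes: 9 of 78 rose and 4 fell, and 8 rose and 5 fell without HT3h_2. CsaV3_2G003630 (chromosome 2, 1814358 to 1816925) rose from 7.02, 7.04 and 2.87 to 329, 1262 and 187 FPKM (log2 fold change 6.33 ± 0.70, adjusted p = 0.00148). HT3h_2 was far above the other heated libraries in this gene. CsaV3_6G034010 rose from 0.314, 0.125 and 0.0645 to 23.2, 30.1 and 16 FPKM (log2 fold change 6.50 ± 0.42, adjusted p = 0.000338) and CsaV3_3G004350 from 16.7, 18.1 and 19.3 to 177, 242 and 99.9 FPKM (log2 fold change 3.17 ± 0.31, adjusted p = 0.000965). Protein kinases, the largest family counted, rose in 75 of 669 and fell in 40, shares of 11.2% and 5.98% beside 11.1% and 9.84% of all genes. Without HT3h_2, 55 kinases rose and 44 fell, and without HT0h_3 22 fell. NB-ARC genes, the intracellular immune receptors, rose in 5 of 33 (15.2%, beside 11.1% of all genes). They rose in 3 without HT3h_2, and also in 3 without HT0h_1, HT0h_2, HT0h_3 or HT3h_1. CsaV3_3G039540 led them, from 1.44, 1.39 and 1.28 to 7.61, 7.74 and 6.82 FPKM (log2 fold change 2.35 ± 0.21, adjusted p = 0.000843).

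Among Pfam families with 10 or more genes tested, the lowest median change was in the core histones, the proteins around which DNA is wound and which dividing cells make during replication. Of 23 genes tested 15 fell and 1 rose, the median log2 fold change was -2.57, and 15 fell with each library left out. The rise, of CsaV3_2G029860 from 0.0862, 0.301 and 0 to 1.09, 1.12 and 0.607 FPKM, was not called without HT0h_1, HT0h_3, HT3h_1 or HT3h_2. Their summed level was 9033, 8337 and 8958 FPKM in HT0h_1 to HT0h_3 and 1879, 1901 and 1725 FPKM in HT3h_1 to HT3h_3. In bulk leaves fewer cells of a type and less RNA per cell cannot be told apart. The fall was of like size in the 3 heated libraries, with medians of -2.83, -2.62 and -2.81.

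Single histone genes lost nearly all of their level. CsaV3_7G031310 (chromosome 7, 19795466 to 19795876) fell from 946, 837 and 909 to 7.49, 5.26 and 27.8 FPKM (log2 fold change -6.43 ± 0.56, adjusted p = 0.00083). CsaV3_7G028400 (chromosome 7, 17881037 to 17881546) fell from 1027, 965 and 1011 to 16.7, 8.71 and 26.1 FPKM (log2 fold change -5.99 ± 0.37, adjusted p = 0.000309), and CsaV3_2G006590 from 1358, 1287 and 1286 to 31.3, 22.2 and 48.6 FPKM (log2 fold change -5.34 ± 0.29, adjusted p = 0.000198). In all 3 genes HT3h_2 was the lowest and HT3h_3 the highest heated library, both far below HT0h. Other members were not called: CsaV3_4G024740 was at 115, 91.4 and 105 and 90.4, 76.8 and 101 FPKM, and CsaV3_UNG131020 at 1120, 831 and 1044 and 767, 867 and 567 FPKM, with overlapping groups, and both were chosen after their values were seen. CsaV3_6G017120 (chromosome 6, 12735905 to 12736216), described by the histone fold of the CENP-T kinetochore protein, fell from 949, 724 and 793 to 12.8, 5.77 and 23.6 FPKM (log2 fold change -6.07 ± 0.46, adjusted p = 0.000583). That name rests on the description alone, and whether the gene encodes a kinetochore protein or a core histone was not tested. Where histone genes of one class are close copies, the split of fragments between them is uncertain, and their sequences were not compared here.

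Falls were also called among other genes of the cell cycle. Kinesins, motors that move along microtubules, fell in 26 of 50 and rose in 2 (24 and 2 without HT3h_2), with a median log2 fold change of -1.22. CsaV3_1G006890 fell from 32.4, 31.8 and 35.9 to 1.14, 0.609 and 1.57 FPKM (log2 fold change -4.88 ± 0.32, adjusted p = 0.000348) and CsaV3_2G012640 from 22.2, 22.3 and 23.5 to 1.2, 0.136 and 0.73 FPKM (log2 fold change -5.17 ± 0.59, adjusted p = 0.00158). Cyclins, the regulatory subunits of the cell cycle kinases, fell in 7 of 31 (22.6%) and rose in 2 (6.45%), beside 9.84% and 11.1% of all genes. The cyclin counts were the same without HT3h_2, and 11 fell without HT3h_3. CsaV3_6G038710 fell from 47.9, 46.5 and 51.2 to 2.59, 2.18 and 1.92 FPKM (log2 fold change -4.39 ± 0.16, adjusted p = 6.68e-05), and CsaV3_4G029350 from 84.9, 97.9 and 114 to 4.42, 0.563 and 3.61 FPKM (log2 fold change -5.46 ± 0.68, adjusted p = 0.00212). The cyclin CsaV3_6G038710 had nearly the same level in the 3 heated libraries, while HT3h_2 was lowest by a wide margin in CsaV3_4G029350 and in the kinesin CsaV3_2G012640. Of 16 tubulins, the building blocks of microtubules, 3 rose and 2 fell (3 and 1 without HT3h_2). These are 18.75% and 12.5% of them, beside 11.1% and 9.84% of all genes. CsaV3_3G043190 rose from 165, 161 and 124 to 639, 916 and 424 FPKM (log2 fold change 2.08 ± 0.32, adjusted p = 0.00409) and CsaV3_3G034310 fell from 397, 358 and 361 to 109, 110.4 and 161 FPKM (log2 fold change -1.58 ± 0.21, adjusted p = 0.00269).

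The MCM genes, which encode the helicase that opens DNA for replication, separated the heated libraries most. The summed level of the 6 genes was 158, 132 and 151 FPKM in HT0h and 20.3, 4.62 and 72.4 FPKM in HT3h_1, HT3h_2 and HT3h_3. All heated values were below all unheated ones in the 6 genes, where groups did not overlap in 51.6% of all genes tested. HT3h_2 was the lowest and HT3h_3 the highest heated library. Of the 6 genes 4 passed the test, with a median log2 fold change of -3.11. CsaV3_2G003500 had 24.4, 20.1 and 22.3 and 2.15, 0.319 and 8.93 FPKM (log2 fold change -3.45 ± 0.98, adjusted p = 0.0335), but was called in only 2 of the 6 fits with 1 library left out, with adjusted p from 0.00449 to 0.0954 by limma. The number of MCM genes called by limma was 4 without HT3h_2, 6 without HT3h_3 and 0 without each of the other 4 libraries in turn. On all 6 libraries voom called 6 lower, and 6 were lower at an unadjusted p under 0.05 by limma.

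**Figure D3:**
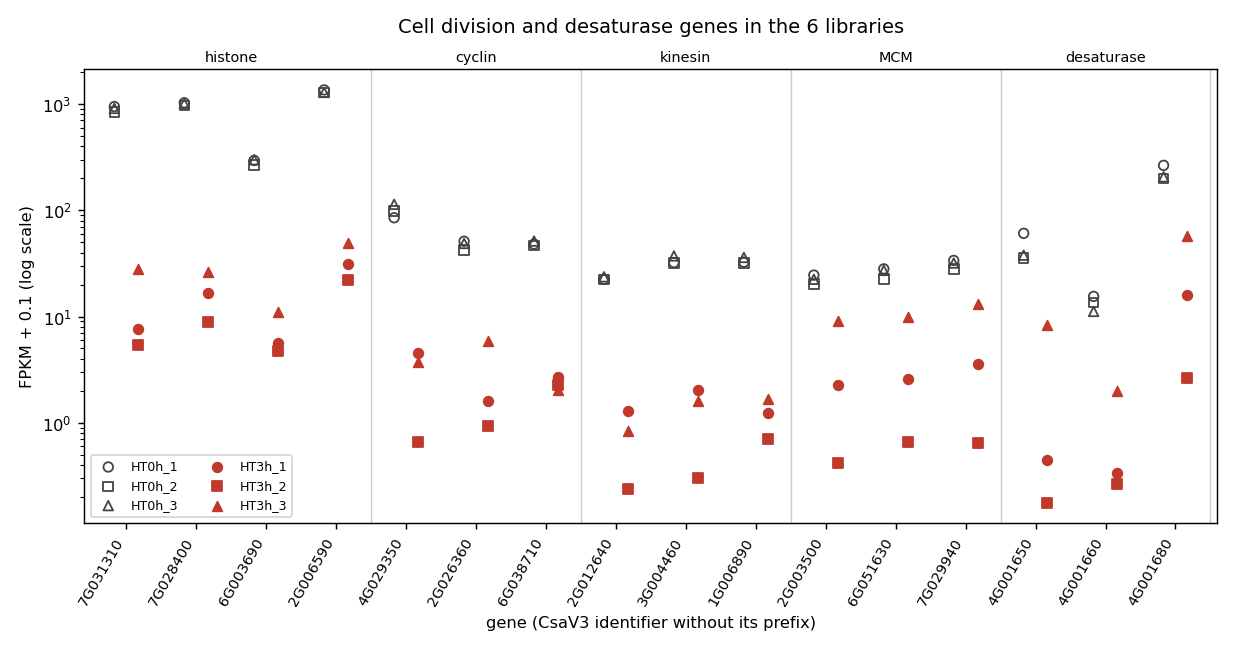
FPKM + 0.1 on a log axis of 16 histone, cyclin, kinesin, MCM and fatty acid desaturase genes in each of the 6 libraries, with open grey symbols for HT0h and filled red symbols for HT3h. Every heated library lies below every unheated one. The genes were chosen among those called lower, so this separation follows from the choice. Groups did not overlap in 51.6% of all genes tested. In the 3 MCM genes HT3h_2 (squares) lies at 0.555 FPKM or less and HT3h_3 (triangles) at 8.93 FPKM or more.

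Ribosomal protein genes were called lower in 24.9% of those tested, beside 9.84% of all genes. Of 217 tested 54 fell, 2 rose and 161 did not pass, with a median log2 fold change of -0.75. The groups did not overlap in 114 of them, a share close to that of all genes (51.6%). How many passed depended on the libraries: 29 fell without HT3h_2, 101 without HT3h_3, 10 without HT0h_1, 21 without HT0h_2, 11 without HT0h_3 and 29 without HT3h_1. The summed level was 72168, 53862 and 62887 FPKM in HT0h_1 to HT0h_3 and 38736, 24604 and 50571 FPKM in HT3h_1 to HT3h_3. HT3h_2 was lowest and HT3h_3 nearest to the unheated leaves. CsaV3_5G005100 fell from 233, 201.2 and 213 to 58.4, 30.7 and 91.8 FPKM (log2 fold change -1.97 ± 0.37, adjusted p = 0.00812). Genes for RNA-binding proteins with an RRM domain rose in 10 of 167 (5.99%) and fell in 5 (2.99%). Both shares were below the 11.1% and 9.84% of all genes. The falls numbered 2 without HT3h_2 and 11 without HT3h_3. CsaV3_2G014690 rose from 245, 216 and 287 to 818, 1045 and 696 FPKM (log2 fold change 1.76 ± 0.27, adjusted p = 0.00392).

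The proteasome is the protease that degrades ubiquitin-tagged proteins. Of 18 genes of its subunits 9 fell and the others did not pass, with a median log2 fold change of -1.004, and 6 fell without HT3h_2. The limma test called 0 higher, 0 were higher at an unadjusted p under 0.05, and voom called 0 higher and 9 lower. CsaV3_7G025230 fell from 59.4, 62.2 and 53.1 to 14.1, 14.9 and 20.1 FPKM (log2 fold change -1.84 ± 0.17, adjusted p = 0.000871), with heated libraries close to each other. The enzymes that attach the tag were called higher at shares near that of all genes. Ubiquitin-conjugating enzymes rose in 5 of 35 (14.3%, beside 11.1% of all genes) and fell in 2, with 4 and 2 without HT3h_2, and 3 rose without HT0h_3. CsaV3_7G023260 rose from 158, 132 and 109 to 415, 441 and 307 FPKM (log2 fold change 1.54 ± 0.23, adjusted p = 0.00387). CsaV3_6G039130 (chromosome 6, 22478015 to 22480235) had one of the deepest falls of any gene, from 119, 103 and 129.8 to 4.15, 0.236 and 4.17 FPKM (log2 fold change -6.00 ± 0.93, adjusted p = 0.00433). F-box genes, which choose the proteins to be tagged, rose in 11 of 76 (14.5%) and fell in 4, and rose in 8 without HT3h_2, in 6 without HT0h_1 and in 7 without HT0h_2. U-box genes, another class of ubiquitin ligases, rose in 3 of 38 (7.89%) and fell in 1, with 1 and 2 without HT3h_2. Ubiquitin-family genes gave 1 call in each direction among 23. CsaV3_2G003580 rose from 45.9, 45.7 and 40.7 to 110.4, 157 and 102 FPKM (log2 fold change 1.46 ± 0.19, adjusted p = 0.00245). CsaV3_4G008470, a ubiquitin fused to the ribosomal protein L40e, stood at 1573, 1025 and 1194 and 415, 196 and 601 FPKM, a fall that was lost without each of HT0h_1, HT0h_2, HT0h_3 and HT3h_1 (adjusted p 0.0573 to 0.0898, limma).

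Photosynthesis genes were where the heated libraries pointed different ways. Of 20 chlorophyll a/b binding genes, the light-harvesting antenna, 0 were called by limma in either direction, 6 were lower at an unadjusted p under 0.05, and voom called 2 lower. Without HT3h_1 4 were called lower by limma, and without HT3h_2 1. The median change from the HT0h mean was -0.05 in HT3h_1, -0.45 in HT3h_2 and -1.44 in HT3h_3. CsaV3_6G051530 had 9360, 9539 and 10235 FPKM in HT0h and 9954, 6238 and 3143 FPKM in HT3h, and CsaV3_6G051520 beside it had 5597, 5981 and 5701 and 9089, 8492 and 2909 FPKM. In both genes HT3h_3 was far below every unheated one while HT3h_1 was not. The RuBisCO small subunit gene CsaV3_5G034360 was at 12904, 15175 and 15395 FPKM in HT0h and 21310, 17889 and 6684 FPKM in HT3h, so the 3 heated libraries lay on both sides of the unheated ones. The 10 highest genes took 9.76% of the fragments in HT3h_1, 8.42% in HT3h_2 and 4.15% in HT3h_3, against 7.14% to 8.32% in HT0h.

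A run of fatty acid desaturase genes on chromosome 4 fell together. Desaturases place double bonds in membrane lipids. Of 13 tested 5 fell, and all 5 lie side by side between 931462 and 973821. CsaV3_4G001660 fell from 15.4, 13.4 and 11.1 to 0.238, 0.165 and 1.88 FPKM (log2 fold change -4.56 ± 0.73, adjusted p = 0.0047), with adjusted p of 0.0242 or less with any library left out. CsaV3_4G001680 went from 265, 199 and 206 to 15.9, 2.56 and 57.6 FPKM (log2 fold change -4.04 ± 0.98, adjusted p = 0.0201), and CsaV3_4G001650 from 60.6, 35.3 and 37.7 to 0.344, 0.0768 and 8.22 FPKM (log2 fold change -5.64 ± 1.29, adjusted p = 0.016). HT3h_3 was the highest heated library in the 3 genes, and the last pair had adjusted p of up to 0.0666 and 0.0586 with 1 library left out (HT0h_1 in both). CsaV3_4G001680 was not called without HT0h_1, HT0h_2, HT0h_3 or HT3h_1, and CsaV3_4G001650 was not called without HT0h_1, HT0h_3 or HT3h_1. The list had 5 falls without HT3h_2, 2 without HT0h_1, 3 without HT0h_2, 2 without HT0h_3 and 2 without HT3h_1. A desaturase gene just before the run, CsaV3_4G001630, was at 69.3, 99.6 and 86.8 and 96.2, 74.6 and 37.9 FPKM, with overlapping groups, and was chosen after its values were seen. These neighbours may share fragments. A lipoxygenase, CsaV3_4G023810, which oxidises polyunsaturated fatty acids, had the largest fitted fall among called genes, but its unheated libraries were far apart, at 142, 65.2 and 24.9 FPKM, against 0.263, 0.018 and 7.44 FPKM with heat (log2 fold change -6.48 ± 1.46, adjusted p = 0.0155). It was not called without HT0h_1, HT0h_2 or HT3h_1.

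Lipid transfer proteins, secreted carriers of cuticle lipids, fell in 9 of 27 (33.3%) and rose in 1 (3.70%), beside 9.84% and 11.1% of all genes. Their median log2 fold change was -1.05, and they fell in 8 without HT3h_2 and in 5 without HT0h_1. CsaV3_7G026880 fell from 310.3, 404 and 289 to 45.5, 36.5 and 81.7 FPKM (log2 fold change -2.68 ± 0.31, adjusted p = 0.00173) and CsaV3_7G018790 from 524, 577 and 242 to 11.9, 8.8 and 50.8 FPKM (log2 fold change -4.57 ± 0.67, adjusted p = 0.00355). Aquaporins, the water channels, fell in 7 of 24 (29.2%) and rose in 2 (8.33%). They fell in 5 without HT3h_2 and in 4 without HT0h_3. CsaV3_5G008960 fell from 40, 41.6 and 30.7 to 8.87, 7.09 and 11.9 FPKM (log2 fold change -2.02 ± 0.22, adjusted p = 0.00148). The groups did not overlap in these genes, and HT3h_2 was the lowest library in each.

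Wall enzymes were called in both directions, in 26.7% of pectinesterases and 16.7% of the cellulose synthase family, beside 20.9% of all genes. Pectinesterases rose in 3 of 30 and fell in 5, with falls of 3 without HT0h_1, 2 without HT0h_2, 1 without HT0h_3 and 3 without HT3h_2. CsaV3_5G004220 fell from 40.6, 55.8 and 78.4 to 1.31, 0.645 and 3.26 FPKM (log2 fold change -5.21 ± 0.54, adjusted p = 0.00114) and CsaV3_7G033930 rose from 22.9, 20.2 and 12.4 to 92.3, 154 and 61.2 FPKM (log2 fold change 2.41 ± 0.37, adjusted p = 0.00419). Of 30 genes of the cellulose synthase family 2 rose and 3 fell, as without HT3h_2. CsaV3_2G009180 rose from 0.32, 0.434 and 0.525 to 11.4, 14.1 and 6.59 FPKM (log2 fold change 4.31 ± 0.35, adjusted p = 0.000722) and CsaV3_4G001030 fell from 27.3, 25.6 and 30.6 to 2, 0.133 and 1.74 FPKM (log2 fold change -4.85 ± 0.79, adjusted p = 0.00513). Each of these genes had heated and unheated values that lay apart.

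Enzymes of secondary and redox metabolism were called in both directions, at shares from 0 of 3 catalases to 27.9% of cytochrome P450 genes, beside 20.9% of all genes. The P450 genes rose in 16 of 140 and fell in 23 (16 and 21 without HT3h_2), with 10 rising without HT0h_2 and 14 falling without HT0h_1 or HT0h_3. CsaV3_3G030690 rose from 0.399, 0.515 and 0.433 to 8.28, 17.3 and 7.63 FPKM (log2 fold change 4.25 ± 0.36, adjusted p = 0.00079). Sugar-transferring UDPGT enzymes rose in 9 of 69 and fell in 10 (6 and 9 without HT3h_2). Rises of UDPGT genes numbered 4 without HT0h_1, 4 without HT0h_2, 3 without HT0h_3, 4 without HT3h_1 and 14 without HT3h_3, and falls 6 without HT0h_1. CsaV3_6G032370 fell from 17.3, 11.2 and 11.9 to 0.731, 0.567 and 0.655 FPKM (log2 fold change -4.15 ± 0.26, adjusted p = 0.000309). Peroxidases rose in 2 of 38 and fell in 1, with the same counts without HT3h_2. Glutathione transferases rose in 4 of 38 and fell in 6 (3 and 6 without HT3h_2), led by CsaV3_3G011430, from 0.24, 0 and 0.164 to 2.1, 1.81 and 2.39 FPKM (log2 fold change 3.40 ± 0.52, adjusted p = 0.00423). The 2 highest catalase genes, which break down hydrogen peroxide, did not pass the limma test, also at an unadjusted p under 0.05 (0 of 3 genes, and 0 called by voom): CsaV3_6G031490 was at 1286, 1335 and 987 and 636, 977 and 545 FPKM and CsaV3_4G037250 at 110.3, 106 and 117 and 106, 82.2 and 29.9 FPKM.

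Late embryogenesis abundant proteins protect drying cells, and the raffinose family sugars are known as osmoprotectants. Of 31 late embryogenesis abundant genes 2 rose and 3 fell (2 and 2 without HT3h_2). CsaV3_7G029330 rose from 67.5, 45.2 and 30.8 to 329, 1091 and 235 FPKM (log2 fold change 3.27 ± 0.58, adjusted p = 0.00666), with HT3h_2 more than 3 times as high as the other heated libraries. Of 5 genes of the raffinose synthase family 1 rose and 1 fell, also without HT3h_2. CsaV3_7G030090 rose from 3.99, 0.713 and 1.63 to 8.46, 43.2 and 23.1 FPKM (log2 fold change 3.52 ± 0.74, adjusted p = 0.012), with HT3h_1 lowest. CsaV3_4G011820 fell from 68.1, 67.9 and 49.5 to 20.1, 28.4 and 35.1 FPKM (log2 fold change -1.17 ± 0.24, adjusted p = 0.0108), a call lost without HT3h_1. CsaV3_3G042690 of the same family was at 7.08, 0.55 and 1.92 and 0.251, 54.6 and 21.2 FPKM, so that HT3h_1 and HT3h_2 lay on opposite sides of the unheated libraries, and it was not called. That gene was chosen after its values were seen.

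HT3h_2 and HT3h_3 differed by 1 log2 unit or more in 4958 of the 19358 genes, 25.6% of them, against 1590 to 1720 genes (8.21% to 8.89%) between HT0h libraries. The median absolute difference of HT3h_2 and HT3h_3 was 0.517 log2 units. Of the 4958 genes, 2126 were higher in HT3h_2 and 2832 in HT3h_3, and 1230 were among the genes called at 3 h. HT3h_2 was the library farther from the unheated leaves. Its median absolute change from the HT0h mean was 0.78 log2 units, against 0.61 in HT3h_1 and 0.58 in HT3h_3. Among the 4051 called genes HT3h_2 was the farthest of the 3 from HT0h in 2471 and HT3h_3 the nearest in 2252.

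The difference had a direction by gene group. Ribosomal protein genes were lower in HT3h_2 than in HT3h_3 in 193 of 217, with a median difference of -1.11 log2 units, and MCM genes in 6 of 6, with a median of -4.29. Chlorophyll a/b binding genes were higher in HT3h_2 in 20 of 20, with a median difference of 1.03. NB-ARC genes were higher in 30 of 33 and all 18 proteasome genes were lower. Among chaperones, chaperonin 60 genes were lower in HT3h_2 in 14 of 19 (median difference -1.04, and -0.81 with 15 of 19 lower at 6 h), and Hsp90 genes in 5 of 6 (median -0.66). Hsp20 genes were higher in HT3h_2 in 18 of 27 with a median difference of 0.18 that turns negative on the scale named next, and Hsp70 genes in 5 of 10. Scaling each library to its own counted fragments would move all of these differences by -0.20 log2 units.

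**Figure D4:**
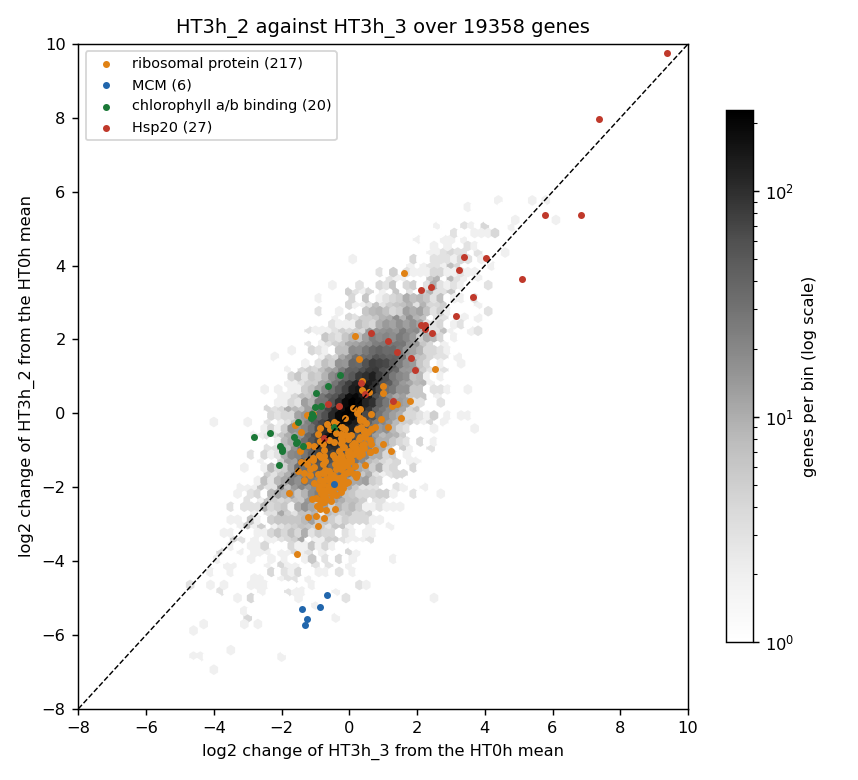
Log2 change from the HT0h mean of each of 19358 genes in HT3h_3 (horizontal axis) and in HT3h_2 (vertical axis), with grey bins for the number of genes on a log scale, 4 gene lists as coloured points and the dashed line of equal change. The Hsp20 points follow the line, the ribosomal protein and MCM points lie below it, and the chlorophyll a/b binding points lie above it.

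The same contrast between replicates 2 and 3 could be read in 2 other libraries, HT6h_2 and HT6h_3. Of the 4958 genes, 3848 (77.6%) had the same sign of the difference after 6 h. Over the genes tested, which are not independent replicates, the differences at 3 h and at 6 h correlated at r = 0.454 and rho = 0.494, as a description. Chlorophyll a/b binding genes were higher in HT6h_2 in 20 of 20 (median 1.27), ribosomal protein genes lower in 184 of 217 (median -0.88) and MCM genes lower in 6 of 6 (median -2.59). AP2 genes, in contrast, were higher in HT3h_2 in 61 of 95 and lower in HT6h_2 in 60 of 95. No label says what replicates with the same number share, and nothing of it was tested.

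Single genes show how far the libraries could stand apart. CsaV3_UNG071590, with a malic enzyme domain, had 1.87, 25.8 and 4.37 FPKM in HT0h and 56.1, 0.572 and 73.8 FPKM in HT3h, and it was low in replicate 2 after 6 h as well, at 70.7, 3.02 and 48.0 FPKM. It was called higher only without HT3h_2 (adjusted p = 0.0490, limma). CsaV3_3G002870, a hydrophobic seed protein, had 87.4, 87.4 and 20.7 FPKM without heat and 0.432, 0 and 91.2 FPKM with it, so that of the heated libraries only HT3h_3 lay near the unheated ones. After 6 h it was at 0.214, 0 and 4.49 FPKM, again highest in replicate 3. CsaV3_3G006120, a NAM gene, had 8.05, 2.69 and 2.07 and 0.634, 9.37 and 0.297 FPKM, and was called lower only without HT3h_2 (adjusted p = 0.0226, limma). Its difference between replicates 2 and 3 was reversed after 6 h, at 5.29, 2.72 and 65.2 FPKM in HT6h_1 to HT6h_3. These genes were chosen for their difference between HT3h_2 and HT3h_3, which is a description.

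**Figure D5:**
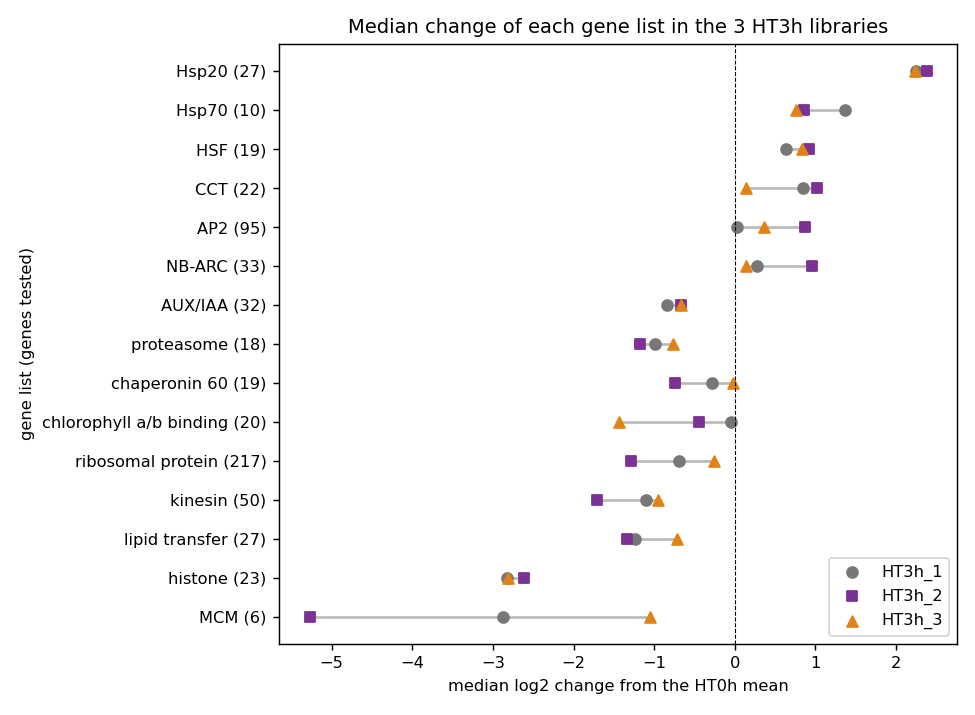
Median log2 change from the HT0h mean of 15 gene lists in HT3h_1 (grey circles), HT3h_2 (purple squares) and HT3h_3 (orange triangles), with the number of genes tested in brackets. The Hsp20 medians (2.25, 2.38 and 2.24) and the histone medians (-2.83, -2.62 and -2.81) lie close together, and the MCM medians range from -5.27 in HT3h_2 to -1.05 in HT3h_3.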

How the data were processed

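RNA-seq was run on leaves of cucumber seedlings, and libraries were grouped by the time point in their labels. Per the submitters' processing notes, CASAVA 1.8, HISAT2 2.0.5, StringTie 1.3.3b and featureCounts 1.5.0-p3 were used. The gene identifiers are those of the cucumber genome version 3, and coordinates are as the files give them, 1-based. Strand handling and the treatment of fragments that match several genes were not given in the sources used here. FPKM values were deposited by the authors in 1 table per library. The depth behind the deposited FPKM was 0.912 to 1.12 times the library's own total in the 6 libraries. Median-of-ratios factors of the deposited FPKM over these libraries ran from 1.003 to 1.013. The FPKM of every gene gave whole fragments within 0.02 (100% of values), and these served only for depth, floors and limma voom.

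The test was limma 3.58.1 in R 4.3.3, with a mean-variance trend, on log2(FPKM + 0.1) of the 3 HT3h and 3 HT0h libraries, for genes with a mean of 0.1 FPKM or more. A call needed a p, adjusted by Benjamini-Hochberg, of at most 0.05 and a log2 fold change of at least 1 in size. Tables were joined with Python 3.11.15 and pandas 2.3.3, and the test was checked on simulated data. The study gives the libraries as biological replicates and does not say how many seedlings went into each. The p-values measure the spread between these libraries, and how much of it is technical was not tested. Depth was 18972139 to 22942239 fragments a library, and floors for genes without fragments are 3 fragments over a group.

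Gene lists were drawn by Pfam entry from the gene descriptions. The genes, lists and rules were chosen with earlier results of these data known. Genes were named by rule, except where the text says otherwise: the 12 largest rises and falls with a mean of 1 FPKM or more and no overlap; up to 4 called genes per list or, where none was called, the most abundant; the top called gene of each transcription factor family with 10 or more genes tested; the 8 largest differences each way between HT3h_2 and HT3h_3; and the 5 most abundant genes of each group. Counts were repeated with each library left out, with other scalings, filters, pseudocounts and variance models, with all 9 libraries, with the 7 the study kept, and with a block for the replicate number.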

Additional observations from a re-analysis of the deposited data

How the results depend on the processing

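The number of genes called was between 2811 and 5083 with 1 library left out, the higher ones between 1630 and 2456 and the lower ones between 1181 and 2627, where the fewest falls were without HT0h_3 (1181) and HT0h_1 (1209) and the most calls without HT3h_3. Under the other settings between 3229 (pseudocount 1) and 5104 (array weights) genes were called, 1685 to 2580 higher and 1544 to 2524 lower. limma voom on fragments called 4074 genes, of which 3851 were among the 4051. Scaling each library to its counted fragments gave 2301 higher and 1663 lower and shifted the median of all genes by 0.05 on the log2 scale, and with quantile normalization 4046 genes were called. The replicate number as a block gave 3772 genes (1993 higher and 1779 lower). Deviations of same-numbered HT0h and HT3h libraries from their group means correlated at -0.23, 0.03 and -0.13. Deviations from a mean of 3 libraries depend on each other, so these values cannot decide whether the numbers pair the libraries. The main test took no pairing. Of the 268 named genes that were called, 182 were called with every library left out in turn, 179 under every alternative tried, and 0 changed direction. Among the fits with 1 library left out, the fewest were called without HT0h_3 (195) and the most without HT3h_3 (260).

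With 3 libraries a group, the residual degrees of freedom were 4, and a gene with few fragments can pass only through a large change. Heat, hour of sampling and the difference between HT3h_2 and HT3h_3 limit every value. Chlorophyll a/b binding genes were called lower in 0 of 20 with all libraries and in 0 to 4 with 1 left out, so their calls depend on which heated libraries are used.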

Other observations

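The counts of this section stand beside 11.1% of all genes called higher and 9.84% called lower. Pentatricopeptide repeat proteins, which bind and edit RNA of chloroplasts and mitochondria, were called higher more often than lower, and most were not called. Of 333 genes tested with the PPR repeat family entry 87 rose and 5 fell (103 and 5 without HT3h_2), with a median log2 fold change of 0.56 and library medians of 0.63, 0.35 and 0.75 in HT3h_1, HT3h_2 and HT3h_3. Their summed level was 2167, 2195 and 2363 FPKM in HT0h_1 to HT0h_3 and 3209, 2799 and 3064 FPKM in HT3h_1 to HT3h_3. Most genes with a DYW deaminase entry are among them, and of the 58 tested 23 rose and the others did not pass (26 rose without HT3h_2). CsaV3_7G007090 rose from 2.08, 2.3 and 1.8 to 25.4, 22.6 and 34.9 FPKM (log2 fold change 3.66 ± 0.22, adjusted p = 0.000259, limma) and CsaV3_7G032800, with a DYW entry, from 3.61, 2.76 and 3.46 to 13.9, 15.6 and 13 FPKM (log2 fold change 2.09 ± 0.19, adjusted p = 0.000855, limma). Both had groups far apart. Papain-type cysteine proteases, which break down proteins in vacuoles and outside the cell, rose in 5 of 12 (4 without HT3h_2), with sums of 526, 433 and 426 FPKM in HT0h and 1841, 2358 and 1288 FPKM in HT3h. HT3h_2 was the highest library in that sum.

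O-methyltransferases, which modify phenolic compounds, fell in 6 of 13 and the others did not pass, also without HT3h_2. CsaV3_3G004010 fell from 183, 142 and 197 to 21.4, 5.55 and 22.7 FPKM (log2 fold change -3.62 ± 0.52, adjusted p = 0.00332, limma). Calponin homology genes fell in 6 of 10 (5 without HT3h_2). CsaV3_2G035590 and CsaV3_6G043540, with the EB1 motif of proteins that track microtubule ends, fell from 15.6, 15.3 and 17 to 1.33, 0.153 and 1.22 FPKM (log2 fold change -4.36 ± 0.65, adjusted p = 0.0037, limma) and from 31.2, 33.2 and 32.9 to 5.76, 1.09 and 5.35 FPKM (log2 fold change -3.27 ± 0.58, adjusted p = 0.00669, limma), with HT3h_2 lowest. Among enzymes of wax and long-chain lipid synthesis, 4 of 10 fatty acid hydroxylases fell (2 without HT3h_2, 6 without HT3h_3). Of 14 FAE1-type enzymes 4 fell and 1 rose. Aromatic amino acid lyases, the entry to phenylpropanoids, fell in 5 of 14, but their library medians were -1.78 in HT3h_1, 0.86 in HT3h_2 and -1.50 in HT3h_3. These families and genes were chosen after their values were seen, and only HT3h_2 and HT3h_3 were left out for their counts.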
